A study of Mus musculus with 18 samples.

Results

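The 10 genes described here encode heat shock proteins and their co-chaperones: the HSP70 family members Hspa1a, Hspa1b and Hspa8, the HSP110 protein Hsph1, the cytosolic HSP90 gene Hsp90aa1, the mitochondrial chaperonin pair Hspd1 and Hspe1, the small heat shock protein Hspb1, and the J-domain proteins Dnajb1 and Dnaja1. They were taken by name and not by their values. All 10 are listed in every table, out of 32747 gene symbols found in any of them. The mouse urinary bladder was profiled in 18 libraries of 11 groups, all from mice of the C57BL/6 strain with no genotype or treatment named in the labels. Cells of the whole bladder gave 5 libraries: a 22-month and a 3-month one, each labelled with 3 males, and a pair at 12 months and 1 at 24 months, each labelled with 2 females plus 2 males. The same mix of sexes is given for the 12-month library of single nuclei and for the 14-month detrusor-enriched cells, while the 14-month detrusor-only cells, from the muscle layer of the wall, are labelled with 3 females. Frozen tissue sections on spatial capture slides came from males of 22 months and of 14 months, with 2 sections each and a label of 4 males, and the labels do not say whether the sections of an age are from different animals. Bulk RNA libraries came from 12-month females, 3 of intact tissue and 3 of dissociated cells, each library labelled with 3 animals. Whether a library is a pool of 3 or from 1 of 3 animals of its group is not clear from this label. Where separate animals are not stated, the p-values below measure the spread between these libraries, which may be technical.

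Heat shock proteins bind unfolded or partly folded polypeptides and keep them from aggregating. HSP70 proteins cycle between open and closed states by ATP hydrolysis, which J-domain proteins such as Dnajb1 and Dnaja1 stimulate and nucleotide exchange factors such as Hsph1 reset. HSP90 acts later on clients such as kinases and steroid receptors, Hspd1 and Hspe1 form the folding chamber of the mitochondrial matrix, and small heat shock proteins such as Hspb1 hold unfolded clients without ATP. Heat, proteotoxic stress and tissue handling induce many of these genes through the transcription factor Hsf1, which binds heat shock elements, arrays of alternating GAA and TTC units. Hspa1a and Hspa1b are the strongly inducible copies, while Hspa8 is expressed in unstressed cells.

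In RefSeq on GRCm38.p6, the assembly behind the mm10 build that the submitters' processing notes name, Hspa1a (chr17:34969359-34972156) and Hspa1b (chr17:34956429-34959238) lie 10120 bases apart on the minus strand. They are near-identical copies, so reads that fit both can be split between them or lost, and the values of each copy alone are uncertain. Of the 250 bases before their start sites, 247 were identical (98.8%). Both upstream regions are printed below because the 2 genes had the largest changes of the members in bulk RNA. The capitals mark the match to GAANNTTC, whose first base lies 104 bases before the start in both genes.

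Hspa1a (chr17:34972157-34972406, minus strand): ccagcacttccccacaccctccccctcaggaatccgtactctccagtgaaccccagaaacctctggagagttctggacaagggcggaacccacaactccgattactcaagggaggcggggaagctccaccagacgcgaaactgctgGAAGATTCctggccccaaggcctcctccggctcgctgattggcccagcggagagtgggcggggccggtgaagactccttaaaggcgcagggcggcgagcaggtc
Hspa1b (chr17:34959239-34959488, minus strand): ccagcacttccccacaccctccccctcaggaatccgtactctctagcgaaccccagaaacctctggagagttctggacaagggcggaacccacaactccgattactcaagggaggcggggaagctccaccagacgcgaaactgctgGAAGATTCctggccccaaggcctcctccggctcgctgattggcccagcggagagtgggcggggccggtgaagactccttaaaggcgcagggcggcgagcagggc

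Windows from 250 bases before to 50 bases after the start were at hand for 8 of the 10 members, all but Hspa8 and Hsp90aa1. They were searched for a pair of heat shock units, GAANNTTC or TTCNNGAA, each of which reads the same on both strands. Some genes have several annotated starts, and the 8 members have 13 windows. A match lay in 8 of these 13 windows (61.5%), from 7 of the 8 members, all but Dnajb1, and in 4946 of all 32851 windows (15.1%). The longer array of 3 units, GAANNTTCNNGAA or TTCNNGAANNTTC, was found in 4 of the 13 windows (30.8%), from 3 members (Hsph1, Hspd1 and Hspe1), and in 198 of 32851 windows (0.603%). Each longer match holds 2 overlapping matches of the shorter kind. The arrays of Hspd1 and Hspe1 are the same stretch, chr1:55088059-55088076, read from opposite strands, since the 2 genes face away from each other. This stretch holds 4 alternating units, so each gene has 2 overlapping 3-unit matches, and both are printed. The sites are shown to let the arrays be compared, with the matched units in capitals and the distance of their first base from the annotated start named, and a match in these letters is a description and does not show binding.

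Hsph1, 3 units, 16 bases after its start at 149636315 and 37 after that at 149636336, counted in bases from 1 at the start: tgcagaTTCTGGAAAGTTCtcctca
Hsph1, 2 units, 54 bases before its start at 149636315 and 33 before that at 149636336, within the gene as measured from its outermost start at 149636498, like the site above: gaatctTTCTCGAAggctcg
Hspd1, 3 units, 144 bases before its start at 55087932, and within the gene as measured from its outermost start at 55088243: ggggccTTCCGGAAGGTTCtagaac
Hspd1, 3 units, 139 bases before the same start: cttccgGAAGGTTCTAGAAcggacc
Hspe1, 3 units, 89 bases before the start: ggtccgTTCTAGAACCTTCcggaag
Hspe1, 3 units, 84 bases before the start: gttctaGAACCTTCCGGAAggcccc
Hspb1, 2 units, 117 bases before the start: acaagaGAAGTTTCcagatg
Hspb1, 2 units, 97 bases before the start: ggggcaGAACCTTCctggcc
Dnaja1, 2 units, 124 bases before the start: cctctaGAAAATTCtacgag

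The other members lie at chr9:40801276-40805202 (Hspa8), chr5:149616843-149636498 (Hsph1), chr12:110691036-110696395 (Hsp90aa1), chr1:55077833-55088243 (Hspd1), chr1:55088148-55091317 (Hspe1), chr5:135887919-135889563 (Hspb1), chr8:83608175-83612653 (Dnajb1) and chr4:40722468-40734965 (Dnaja1). Hspd1 and Hspe1 overlap by 96 bases at their starts. Whether counting used the strand is not given in the sources used here, so reads from the overlap cannot be told apart. Hspa8, Hspd1 and Hspe1 also have processed pseudogenes that can share reads with them, so their values are uncertain too.

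The bulk libraries held 23083752 to 68760791 reads. After filters, the droplet libraries held 948 to 8420 cells or nuclei with a median of 1109 (nuclei) to 15774 unique molecular identifiers (UMIs, 1 per captured RNA molecule), and the sections 937 to 1317 spots. The 2 male whole-bladder libraries were counted with another gene list (27775 genes) and carry shorter barcodes than the mixed-sex ones (27998 genes), so sex, age and processing cannot be told apart between them. The detrusor-only library had 360 smooth muscle-like cells among 5379 and 2688 fibroblast-like cells, so most of its cells were not muscle. Droplet libraries shared at most 64 barcodes (of the 6378 of the smaller library), and sections shared 247 to 533 spot barcodes, which are positions on the slide. No deposited table gives cell types, so clusters were named here by marker lists and are called "like" the class.

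Dissociation of the bladder can be set against intact tissue in the bulk libraries. Of the 10 members, 9 were higher in dissociated cells and 1, Hspb1, was lower (edgeR's quasi-likelihood test with Benjamini-Hochberg adjustment, adjusted p under 0.05). Of all 16538 genes tested, 27.9% were called higher and 31.3% lower. The median log2 fold change of the members was 1.82, beside -0.03 over all genes tested. The libraries of the 2 groups did not overlap for any of the 10 members, and did not overlap for 67.2% of all genes tested. Bulk levels are in CPM (counts scaled to a common library total) after TMM, edgeR's normalisation, and levels of different genes are not comparable because gene length is not divided out.

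The inducible HSP70 genes changed most. Hspa1a stood at 19.1, 15.5 and 17.6 CPM in the intact libraries 1, 2 and 3 and at 316, 297 and 355 CPM in the dissociated libraries. It rose 18.6-fold, or by 4.22 on the log2 scale (SE 0.12, adjusted p 6.9e-07). Every dissociated library was far above every intact one. Hspa1b, its neighbouring copy, stood at 50.9, 42.8 and 46.4 CPM in intact tissue and at 643, 652 and 766 CPM in dissociated cells. It rose 14.7-fold, by 3.88 on the log2 scale (SE 0.12, adjusted p 7.6e-07). Because reads can be split between the 2 copies, their sum was also taken, as plain CPM without TMM, unlike the levels of each copy. It was 60.8 to 72.0 CPM in intact tissue and 919 to 1061 CPM in dissociated cells. The sum therefore shows the same separation as each copy. Hspa8, the constitutive HSP70, stood at 775, 746 and 732 CPM in intact tissue and at 1898, 1790 and 2023 CPM in dissociated cells, a 2.54-fold rise (log2 1.34, SE 0.09, adjusted p 1.8e-05).

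The partners of HSP70 and Hsp90aa1 rose by less than the inducible copies and by more than Hspa8. Dnajb1, the J-domain protein that works with HSP70 in disaggregation, stood at 39.7, 42.1 and 44.3 CPM in intact tissue and at 479, 452 and 461 CPM in dissociated cells. That was an 11-fold rise (log2 3.46, SE 0.087, adjusted p 5.0e-07). Dnaja1, a J-domain protein of the cytosol, stood at 76.5, 80.9 and 80.1 CPM against 293, 296 and 326 CPM, a 3.85-fold rise (log2 1.95, SE 0.081, adjusted p 2.3e-06). Hsph1, the nucleotide exchange factor, stood at 81.3, 80.5 and 81.8 CPM against 278, 322 and 357 CPM, a 3.93-fold rise (log2 1.97, SE 0.11, adjusted p 6.2e-06). Dnaja1 and Hsph1 thus rose by nearly the same factor. Hsp90aa1, the inducible cytosolic HSP90, stood at 193, 194 and 195 CPM in intact tissue and at 587, 611 and 691 CPM in dissociated cells, a 3.25-fold rise (log2 1.70, SE 0.092, adjusted p 6.5e-06).

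The mitochondrial pair moved less. Hspd1, the HSP60 subunit, stood at 130, 121 and 116 CPM in intact tissue and at 156, 171 and 184 CPM in dissociated cells, and rose 1.39-fold (log2 0.48, SE 0.09, adjusted p 0.0028). Hspe1, its HSP10 lid, stood at 37.6, 34.6 and 37.0 CPM against 44.6, 55.9 and 50.8 CPM, again a 1.39-fold rise (log2 0.47, SE 0.096, adjusted p 0.004). The genes share a start region, and the gap between the groups was small for both. Hspb1 moved the other way: it stood at 188, 159 and 184 CPM in intact tissue and at 132, 134 and 147 CPM in dissociated cells. It fell by 0.36 on the log2 scale (SE 0.093, adjusted p 0.011), to 0.777 of its intact level. The call and direction of all 10 members were kept under each of the 11 alternatives, which changed the scaling, the filter, the tool, the block or the libraries used.

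**Figure D1:**
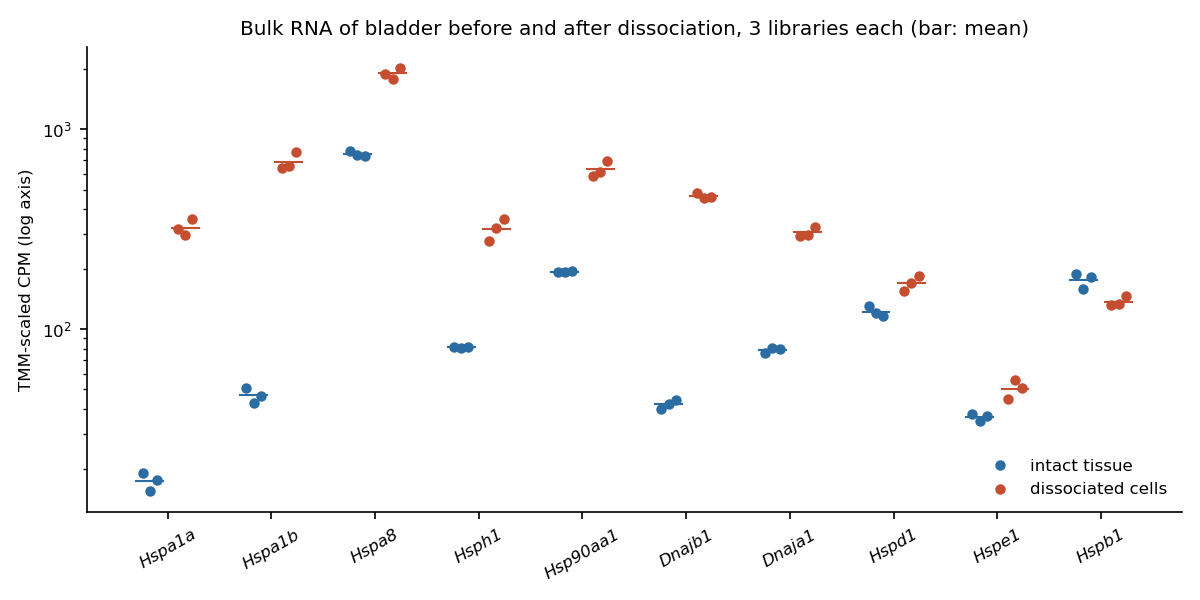
Level of each member in the 6 bulk libraries as TMM-scaled CPM on a log axis (blue, 3 intact; red, 3 dissociated; bar, mean of the group). The red points lie above the blue ones for 9 members, most of all for Hspa1a (17.4 to 323 CPM on average), and below them for Hspb1 (177 to 137 CPM). Levels of different genes are not scaled by length.

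Other genes of the chaperone network were taken from lists that exclude the 10 members, and some genes stand in 2 lists. The counts per list are to be read beside the 27.9% of all genes called higher and the 31.3% called lower in bulk. Of 10 further HSP70 genes 6 rose and 0 fell (median log2 fold change 0.42), with Hspa5, the HSP70 of the endoplasmic reticulum, going from 333 ± 37.7 to 1056 ± 16.8 CPM (mean and SD, n = 3 and 3; log2 1.67) and Hspa12b, an endothelial HSP70-like gene, from 45.3 ± 4.62 to 76.2 ± 13.0 CPM (log2 0.75). Of 19 further J-domain proteins 9 rose and 3 fell (median 0.21). Dnajb9, an endoplasmic reticulum co-chaperone, went from 29.4 ± 2.54 to 99.3 ± 6.17 CPM, and Dnajb4 from 61.4 ± 2.54 to 112 ± 6.60 CPM. Dnajb5 fell from 71.3 ± 11 to 28.2 ± 1.49 CPM, and Dnajb12 from 65.4 ± 3.77 to 50.1 ± 4.12 CPM. Of 17 endoplasmic reticulum chaperones 12 rose and 0 fell (median 0.48), led by Dnajb9 and Hspa5. These are resident folding factors of the secretory pathway, known as targets of the unfolded protein response.

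Small heat shock proteins other than Hspb1 fell: 5 of the 5 tested (of 8 listed) were lower, with a median of -2.54. With a library left out, 4 to 5 were called lower, and 1 listed gene, Hspb9, which the filter on low counts had left out, was called higher without dissociated library 2 or any of the intact libraries; it is named after its values were seen. Hspb6, a muscle-rich member, went from 174 ± 7.46 to 10.9 ± 3.01 CPM (log2 -3.99), and Hspb7 from 48.0 ± 5.25 to 6.03 ± 1.32 CPM (log2 -2.99). These genes are known from muscle, and the 10 smooth muscle markers were all lower in dissociated cells. Their summed level was 44694 to 47211 CPM in intact tissue and 2729 to 4012 CPM in dissociated cells. The share of the members' changes that goes with this shift was not tested. In bulk RNA, fewer cells of a type and less RNA per cell cannot be told apart.

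Of 23 co-chaperones of HSP70 and HSP90, 4 rose and 6 fell (median -0.04), both smaller shares than those of all genes (27.9% higher and 31.3% lower). Bag3, an HSP70 nucleotide exchange factor of selective autophagy, rose from 83.0 ± 9.18 to 332 ± 42.2 CPM, and Unc45a, a myosin chaperone, from 113 ± 7.38 to 183 ± 28.8 CPM. Bag2 fell from 64.3 ± 3.24 to 16.2 ± 0.936 CPM, and Ttc4 from 40.8 ± 2.34 to 24.6 ± 2.03 CPM. Of 13 tested genes of the cytosolic chaperonin TRiC and of prefoldin 0 rose and 3 fell (median 0.06), among them Tcp1, from 179 ± 4.51 to 144 ± 9.31 CPM, and Pfdn6 (log2 -0.29, adjusted p 0.034), whose call ended under 7 of the 11 alternatives, among them without intact library 1 (adjusted p 0.092). Without intact library 1 or 3 or dissociated library 1, the genes of this list called lower were 1 instead of 3, and 1 was called higher without dissociated library 1. Of 13 mitochondrial chaperones and proteases 1 rose and 6 fell (median -0.18): Hspa9, the mitochondrial HSP70, had a log2 change of 0.31 (adjusted p 0.038) that was lost under 6 of the alternatives, among them without any 1 of the intact libraries (adjusted p 0.0948 to 0.108), while without dissociated library 1 there were 2 genes called higher in this list. Timm44 fell from 60.1 ± 2.75 to 39.7 ± 0.637 CPM and Clpp, a matrix protease, from 33.1 ± 1.77 to 22.7 ± 1.86 CPM.

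Of the 3 other HSP90 genes, 2 were called higher and 1 lower. Hsp90ab1, the constitutive cytosolic form, had a log2 change of 0.28 (adjusted p 0.034), from 1547 ± 81.0 to 1878 ± 125 CPM, and missed the threshold under 6 of the alternatives, among them scaling by library size alone (log2 0.17, adjusted p 0.126). Hsp90b1, the HSP90 of the endoplasmic reticulum, had a change of 0.48 (adjusted p 0.014) that missed it without intact library 1 (log2 0.39, adjusted p 0.0604). Trap1, the mitochondrial HSP90, fell from 98.3 ± 2.09 to 72.9 ± 2.08 CPM. Among 5 tested heat shock factors and their regulators, Hsf2 was called higher (log2 0.34, adjusted p 0.017), which was lost without intact library 1 (adjusted p 0.0801) or 3 (adjusted p 0.057), and Hsbp1, a negative regulator of Hsf1, fell from 97.0 ± 2.03 to 78.6 ± 2.15 CPM.

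Genes of the wider stress response moved alongside the members. Of 14 proteotoxic stress targets 11 rose and 3 fell (median 1.34): Ppp1r15a, the phosphatase subunit that reverses the integrated stress response, went from 23.7 ± 1.48 to 529 ± 72.3 CPM (log2 4.48), and Ier5 from 46.8 ± 2.16 to 343 ± 33.8 CPM (log2 2.87). Txnip fell from 906 ± 71.1 to 305 ± 65.1 CPM, and Rgs2, a regulator of G protein signalling, from 275 ± 62.9 to 108 ± 12.7 CPM. All 20 tested immediate-early genes, transcription factors that respond to stimulation within minutes, rose (median 5.01), with a summed level of 570 to 789 CPM in intact tissue and 19699 to 24876 CPM in dissociated cells. Fosb had 5.20 ± 3.57 and 3419 ± 619 CPM, and Atf3 5.39 ± 3.35 and 1013 ± 95.9 CPM. Cell type markers shifted as well: 12 of 12 fibroblast markers were higher (sum 13495 to 16887 against 27111 to 39895 CPM), as were 10 of 11 macrophage markers, 8 of 10 blood endothelial markers and 5 of 5 erythroid markers. Of 15 urothelial markers 4 were higher and 7 lower. The part of cell composition in the members' changes was not tested.

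In single cells, the levels of most members differed between some of the classes. Levels here are plain CPM over the 26344 genes common to the droplet and section tables, from UMIs summed over at least 50 cells of a class in a library, and the error is the SD over whole-bladder libraries. Means and orders of classes are given for the 4 classes with 4 or 5 such libraries, and classes with 2 are given apart. Of these 4, Hspa1a was highest on average in fibroblast-like cells (1384 ± 664 CPM, n = 5), followed by macrophage- or monocyte-like (1135 ± 241, n = 4), dendritic-like (879 ± 191, n = 4) and urothelial-like cells (217 ± 109, n = 5). The ranges of neighbouring classes in this order of 4 overlapped except between dendritic-like and urothelial-like cells. By their means, blood endothelial-like cells (480 CPM at 22 months and 256 CPM at 3 months, n = 2) lay between those 2. So did T- or NK-like cells (281 CPM at 22 months and 279 CPM at 3 months, n = 2). All of these but the 480 CPM fell within the urothelial-like range. They also lay below the urothelial-like level of their own library (297 CPM at 22 months and 330 CPM at 3 months). In fibroblast-like cells, Hspa1a stood at 1586 CPM (22 months), 784 (3 months), 2023 and 583 (12 months) and 1943 CPM (24 months). In urothelial-like cells it stood at 297, 330, 156, 61.7 and 238 CPM in the same order. The fibroblast-like level was higher in all 6 cell libraries with both classes, the detrusor-enriched one included, by 2.37 to 13.0 times. Fibroblast-like clusters differed among themselves. In the first 12-month library, Hspa1a stood at 3033 CPM in the cluster led by Col1a1, Car3 and Cxcl14 (193 cells) and at 1055 CPM in the one led by Clec3b and Pi16 (222 cells), and in the 24-month library the like clusters held 3141 and 978 CPM, with 204 CPM in another Pi16 cluster. In the second 12-month library the class is a Clec3b and Pi16 cluster of 96 cells (583 CPM), since its cluster of 45 cells led by Cxcl14 and Car3 was not named. The class levels of the 12-month libraries thus come from different clusters. At 3 months, the fibroblast-like clusters ran from 101 to 1048 CPM, and 3 of them (101, 208 and 311 CPM) lay below the urothelial-like clusters (329 and 336 CPM).

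Other classes reached still other Hspa1a levels in the detrusor libraries. Macrophage- or monocyte-like cells stood at 5327 CPM in the detrusor-only library, the highest of any class there, and at 1577 CPM in the detrusor-enriched one. Schwann-like cells, the glia of peripheral nerves, stood at 2934 and 3601 CPM in these libraries. For Hspa1a, smooth muscle-like cells stood below fibroblast-like cells. They held 110 CPM in the second 12-month library, 825 CPM in the detrusor-only and 251 CPM in the detrusor-enriched library. Fibroblast-like cells of the same 3 libraries were 3.21 to 5.30 times higher. Urothelial-like cells were lower than smooth muscle-like ones, at 61.7 CPM in the second 12-month library and 83.0 and 94.9 CPM in clusters of the detrusor-enriched one. Smooth muscle-like clusters of the detrusor-only library ran from 739 to 2063 CPM. The 110 CPM is from 1 cluster of 69 cells, whose highest score was for the blood endothelial marker list.

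Hspb1 followed another order. Blood endothelial-like cells held 2327 CPM (22 months), 1445 CPM (3 months), 5826 CPM (detrusor only) and 2288 CPM (detrusor enriched), 3.28 to 15.8 times the fibroblast-like level of the same library in 4 of 4. Smooth muscle-like cells held 858, 3639 and 1283 CPM in the second 12-month, the detrusor-only and the detrusor-enriched library, against 907, 1774 and 313 CPM in fibroblast-like cells. Mesothelial-like cells, from the outer lining, held 1358, 3233 and 1670 CPM in the 22-month and the 2 detrusor libraries, and Schwann-like cells 2167 and 1548 CPM in the detrusor ones. Immune classes were low in the cell libraries: dendritic-like cells held 10.1 to 100 CPM, T- or NK-like cells 15.5 to 116 CPM and macrophage- or monocyte-like cells 7.53 to 168 CPM, apart from 713 CPM in the detrusor-only library. In nuclei, macrophage- or monocyte-like ones held 332 CPM from 21 UMIs (exact 95% interval 206 to 508 CPM, for counting error only), which spans the 289 CPM of fibroblast-like nuclei, and smooth muscle-like nuclei, 1385 of the 3375, held 710 CPM. Urothelial-like (525 ± 109 CPM, n = 5) and fibroblast-like cells (456 ± 327, n = 5) lay between and overlapped. The fibroblast-like Hspb1 levels were 147 and 131 CPM in the 2 male libraries and 489, 907 and 605 CPM in the 3 of mixed sex.

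Hspa8 was lowest in urothelial-like cells in 6 of the 8 droplet libraries, and the detrusor-only library had no urothelial-like class to rank. In plain CPM its urothelial-like level was 714, 730, 834, 856 and 770 CPM in the whole-bladder libraries. Fibroblast-like cells ranged from 890 to 2325 CPM and did not overlap with it on that scale. With TMM scaling the urothelial-like levels were 651, 605, 1116, 1177 and 1026 CPM in the same order. The fibroblast-like ones were then 714, 721, 2172, 1297 and 1657 CPM, and the 2 classes overlapped. Dendritic-like cells had the highest mean of the 4 classes (2221 ± 570 CPM, n = 4) and exceeded fibroblast-like cells in 6 of 6 libraries, and blood endothelial-like cells exceeded them in 4 of 4. Hsp90aa1 was lowest in urothelial-like cells in 7 of the 8 libraries, that is, in every library that held the class. It stood at 159 ± 68.9 CPM there over the whole-bladder libraries (n = 5), against 613 ± 486 CPM in fibroblast-like cells. The fibroblast-like levels were 124 and 155 CPM in the male libraries and 1089, 565 and 1129 CPM in the mixed-sex ones. The male and mixed-sex libraries did not overlap in urothelial-like cells either (91.7 and 81.9 against 204, 183 and 236 CPM). Sex, age and processing cannot be told apart there.

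Of the 4 classes, Dnajb1 was highest on average in fibroblast-like cells (771 ± 444 CPM, n = 5), followed by urothelial-like cells (432 ± 68.2, n = 5), and both macrophage- or monocyte-like (218 ± 23.1, n = 4) and dendritic-like cells (183 ± 26.1, n = 4) were lower. The urothelial-like and macrophage- or monocyte-like ranges did not overlap. Blood endothelial-like cells held 390 and 601 CPM (n = 2), the first within the urothelial-like range and the second above it. This order of 4 differs from that of Hspa1a, in which urothelial-like cells were last. Among the same 4, Dnaja1 was highest on average in fibroblast-like cells (553 ± 221 CPM, n = 5) and lowest in urothelial-like ones (154 ± 37.2, n = 5). Macrophage- or monocyte-like and dendritic-like cells lay between and overlapped both neighbours. Blood endothelial-like cells held 362 and 417 CPM and T- or NK-like cells 395 and 437 CPM (n = 2 each). The former exceeded fibroblast-like cells in 3 of 4 cell libraries. Hsph1 held 65.7 ± 58.4 CPM in fibroblast-like and 13.2 ± 1.86 CPM in urothelial-like cells. The mitochondrial pair varied least by class: mean Hspd1 levels ran from 88.6 to 122 CPM and mean Hspe1 levels from 250 to 306 CPM over the 4 classes, with every neighbour overlapping.

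In the detrusor-only library, macrophage- or monocyte-like cells stood apart for most members. Hsp90aa1 reached 5631 CPM there against 84.4 to 1011 CPM in that class in the other cell libraries, Hsph1 577 against 9.04 to 61.9 CPM, and Hspa1b 2590 against 1.51 to 449 CPM. Its near-identical copy Hspa1a had a smaller gap, 5327 against 853 to 1577 CPM. The Hspa1b share of their summed counts ran from 1.25% (3 months) to 29.999% (detrusor only) over the cell libraries, so the gap for Hspa1b alone is uncertain. This library is single, so the difference has no replicate check. At the other end, T- or NK-like cells of the 22-month library held 0 Hspa1b UMIs among 327218, where the exact 95% upper limit is 11.3 CPM. These intervals cover counting error only. The same cells held 281 CPM of Hspa1a, and Hspa1b took 1.66% of the summed counts of the 2 copies in that library. The 0 therefore does not show that the pair was low there.

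**Figure D2:**
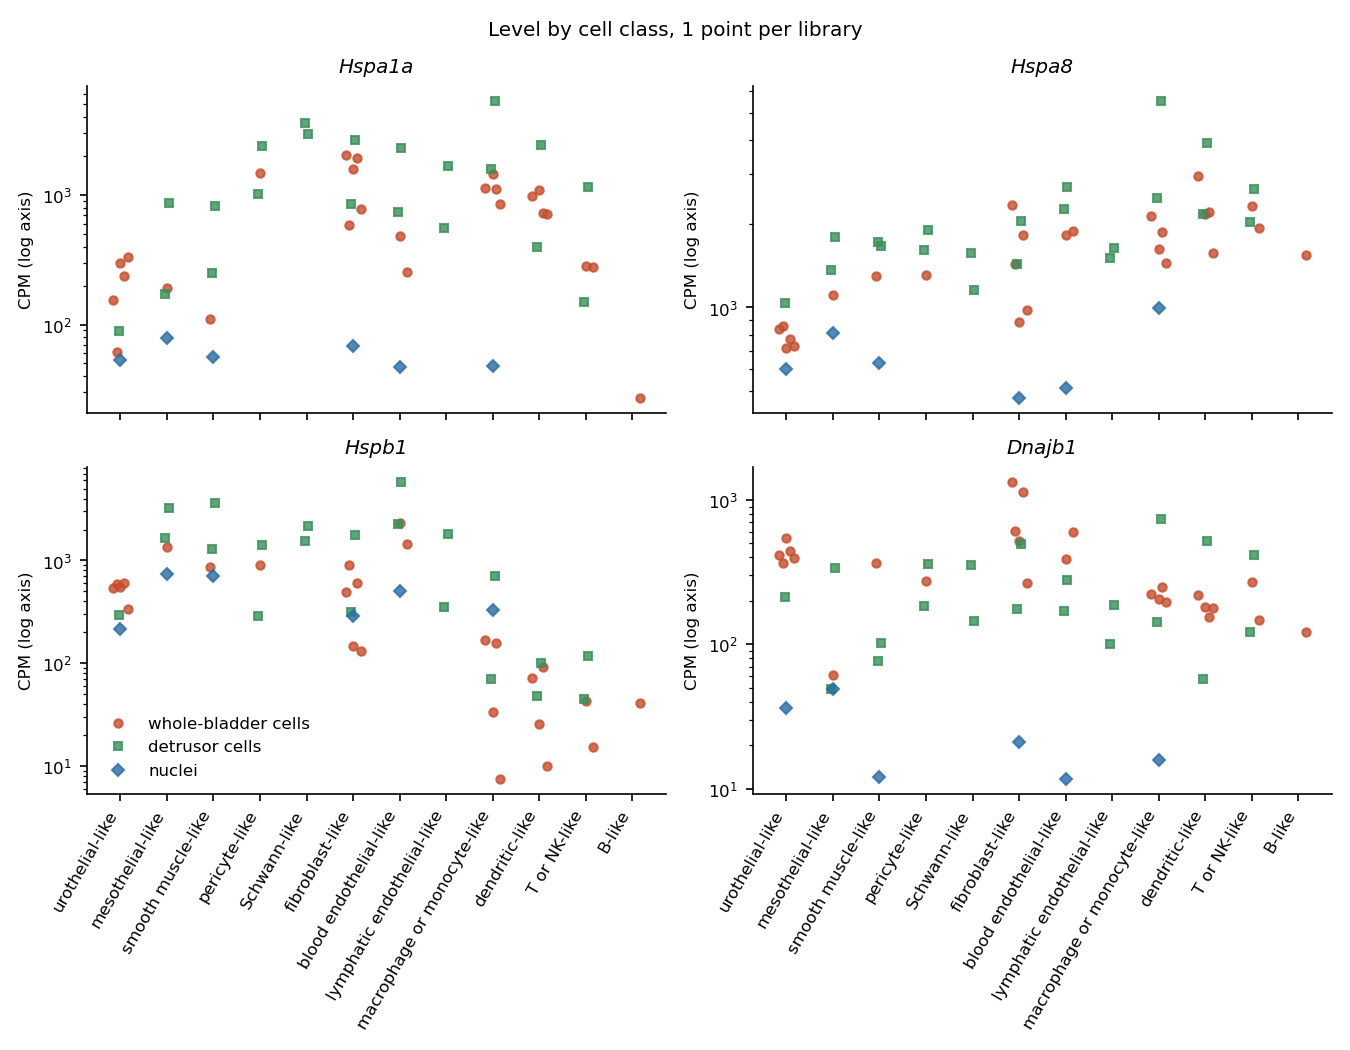
Levels of Hspa1a, Hspa8, Hspb1 and Dnajb1 by cell class as plain CPM on a log axis, 1 point per library with at least 50 cells of the class (red circles, whole-bladder cells; green squares, detrusor cells; blue diamonds, nuclei). Hspb1 is high in blood endothelial-like cells (2327 CPM in the 22-month library), Hspa1a is low in urothelial-like cells, and the nuclei lie below the cells for Dnajb1 except in mesothelial-like ones, where they (49.0 CPM) are level with a detrusor library. Levels of different genes are not scaled by length.

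How the near-identical Hspa1a and Hspa1b shared their counts differed between tables more than between conditions. Hspa1b took 72.7%, 73.4% and 72.5% of their summed reads in intact bulk tissue and 67.0%, 68.7% and 68.3% in dissociated cells. In the sections it took 60.2% to 63.1%. Whole-bladder cells gave far less, 1.66% and 1.25% in the male libraries, 8.79% and 16.6% in the 12-month and 9.53% in the 24-month library. The nuclei gave 48.3% (95% Wilson interval 44.0% to 52.7%), and the detrusor-only and detrusor-enriched libraries 29.999% and 24.4%. Tables with the same gene list thus still differed, as nuclei, detrusor cells and sections list the same 31053 genes. The share also differed between classes of 1 library. In the second 12-month library, fibroblast-like cells had 36 Hspa1b and 349 Hspa1a UMIs, and urothelial-like cells had 261 and 812, a larger share of Hspa1b. In the first 12-month library these counts were 276 and 4712, and 684 and 4777. The share thus differed between assays, gene lists, libraries and classes, and the part of each in it was not tested.

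**Figure D3:**
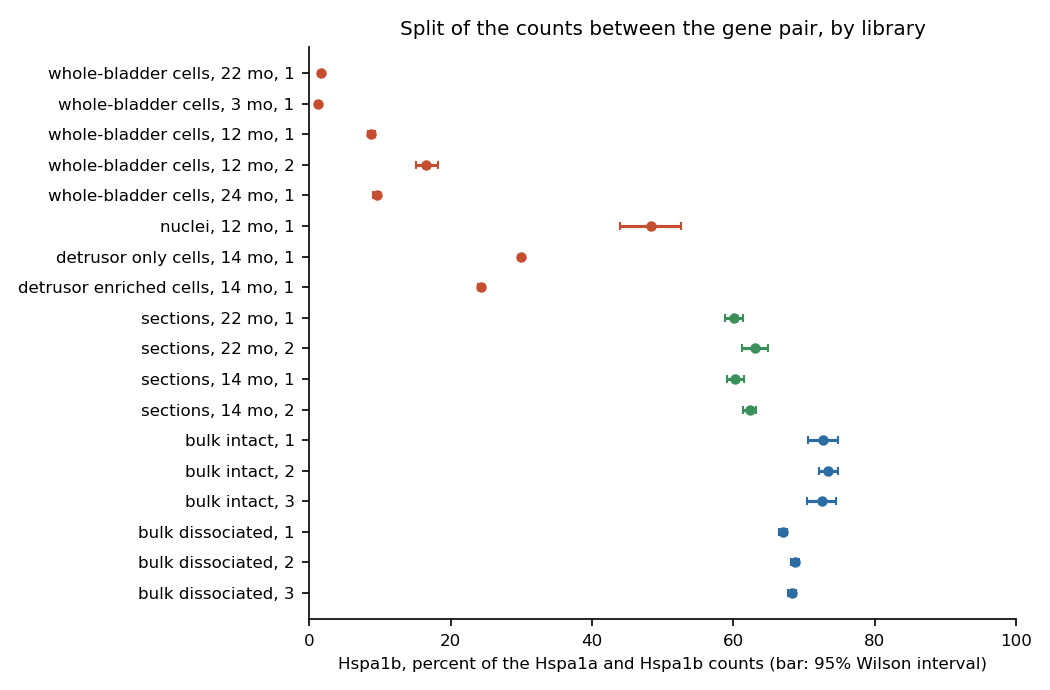
Percent of the summed Hspa1a and Hspa1b counts assigned to Hspa1b in each of the 18 libraries, with its 95% Wilson interval, which covers counting error only. The whole-bladder cells lie at 1.25% to 16.6% and the bulk libraries at 67.0% to 73.4%.

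The nuclei library allows cell levels to be set beside RNA from nuclei of the same class. Nuclei were compared with the 5 whole-bladder cell libraries in urothelial-like and in fibroblast-like cells. Levels are TMM-scaled CPM, and since there was 1 library of nuclei, its spread was taken to equal that of the cells. The p-values therefore rest on the spread among the cell libraries, and the calls describe this 1 library of nuclei. On simulated counts, both fits recovered few of the genes changed by 2 on the log2 scale. A missed threshold below therefore does not show equal levels. In urothelial-like cells 5 members were lower in nuclei and 0 higher, and of 13198 genes tested 18.7% were lower and 16.8% higher. In fibroblast-like cells 2 members were lower and 0 higher, and of 12481 genes tested 14.2% were lower and 7.74% higher. The median log2 difference of the members was -1.17 and -1.97, beside 0.02 and -0.31 over all genes tested.

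Dnajb1 was lower in nuclei of both classes. In urothelial-like nuclei it stood at 18.7 CPM, against 504 (22 months), 332 (3 months), 560 and 506 (12 months) and 589 CPM (24 months) in cells, a log2 difference of -4.74 (SE 0.47, adjusted p 0.0016). In fibroblast-like nuclei it stood at 12.6 CPM, against 526, 252, 1628, 740 and 1340 CPM in cells (log2 -6.15, SE 1.36, adjusted p 0.019). No cell library came near the nuclei in either class. The fibroblast-like nuclei were mostly of a cluster led by Pi16 (387 of 412). The fibroblast-like cells of every whole-bladder library but the second 12-month one also held clusters led by Car3 and Cxcl14. In the first 12-month library these had 1821 CPM of Dnajb1 (plain CPM) against 869 CPM in the Pi16 cluster, and in the 24-month library 1676 against 730 CPM. At 3 months the largest such clusters had 294 and 275 CPM, and clusters with Pi16 among their leading genes 93.8 to 325 CPM. At 22 months the largest had 639 and 568 CPM, and clusters with Pi16 among their leading genes 610 and 276 CPM. Hspa1a stood at 27.7 CPM in urothelial-like nuclei, against 275, 277, 209, 85.6 and 318 CPM in cells (log2 -3.07, SE 0.77, adjusted p 0.02). In fibroblast-like nuclei it stood at 40.7 CPM, against 1598, 745, 2468, 711 and 2311 CPM in cells (log2 -5.27, SE 1.1, adjusted p 0.017). The lowest cell library for Hspa1a was the second 12-month one in both classes. Hspa1b gave no such difference: urothelial-like nuclei held 31.1 CPM and cells 5.72 to 49.4 CPM (log2 0.31, adjusted p 0.83). With the copies summed as plain CPM, urothelial-like nuclei held 113 CPM and cells 81.5 to 337 CPM, which overlap on that scale. Fibroblast-like nuclei held 122 CPM and cells 643 to 2141 CPM. These sums lack the TMM scaling of the levels above, whose factor was 1.93 for urothelial-like nuclei and 0.72 to 1.19 for the cells. TMM divides by this factor, so it lowers the nuclei relative to the cells. The overlap in plain CPM therefore cannot be set against the Hspa1a difference. On the TMM scale, urothelial-like nuclei held 27.7 CPM of Hspa1a and 31.1 CPM of Hspa1b. Together these lie below the lowest cell level of Hspa1a alone, 85.6 CPM, so the summed pair did not overlap on that scale.

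Hspb1, Hspe1 and Hspa8 were also lower in urothelial-like nuclei. Hspb1 stood at 112 CPM in nuclei against 281 to 819 CPM in cells (log2 -2.49, SE 0.67, adjusted p 0.026), and Hspe1 at 61.5 against 137 to 465 CPM (log2 -2.42, SE 0.73, adjusted p 0.039). Hspa8 stood at 313 CPM against 612 to 1188 CPM (log2 -1.56, SE 0.49, adjusted p 0.044). The calls of Hspa8 and Hspe1 were lost without the first or second 12-month or the 24-month library (adjusted p 0.0531 to 0.0764). In fibroblast-like nuclei these 3 genes missed the threshold, with log2 differences of -1.64, -2.59 and -2.59 for Hspb1, Hspe1 and Hspa8 and adjusted p of 0.38, 0.12 and 0.057.

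Of the members that missed the threshold in urothelial-like nuclei, Hspd1 lay below every cell library and the others overlapped with the cells. In all, 6 of the 10 members did not overlap with the cells, beside 73.6% of all genes tested. Hsph1 was at 18.9 CPM in nuclei and 8.87 to 20.6 CPM in cells, Hsp90aa1 at 116 and 68.6 to 316 CPM, Hspd1 at 76.3 and 82.3 to 125 CPM, and Dnaja1 at 109 and 97.3 to 268 CPM. In fibroblast-like nuclei, Dnaja1 stood at 146 CPM against 305 to 1015 CPM in cells (log2 -2.11, adjusted p 0.078) and Hspd1 at 74.4 against 102 to 202 CPM (log2 -0.89, adjusted p 0.24), both below every cell library, as were 6 of the 10 members in all, where 68.95% of all genes tested did not overlap. Hsp90aa1 stood at 203 against 125 to 1343 CPM (log2 -1.84), Hsph1 at 25.3 against 17.3 to 158 CPM and Hspb1 at 173 against 125 to 1106 CPM, and these overlapped. When only the 12-month cell libraries were used, which match the nuclei in age and sex, 7 members were lower in urothelial-like nuclei (Hspa8, Hsp90aa1, Hspd1, Hspe1, Hspb1, Dnajb1 and Dnaja1) and 6 in fibroblast-like nuclei (Hspa8, Hsp90aa1, Hspe1, Hspb1, Dnajb1 and Dnaja1). Of all genes, 29.4% of 12846 were lower and 22.8% higher in the first of these fits, and 18.4% of 8862 were lower and 11% higher in the second. Against the 12-month cells, Hspa1a missed the threshold in both (log2 -2.51, adjusted p 0.14, and -5.05, adjusted p 0.058). With all cell libraries but the 3-month one, 4 members were lower in fibroblast-like nuclei. The scaling mattered in this comparison: with library size alone the median of all genes moved to 1.15 in urothelial-like and 0.56 in fibroblast-like nuclei. The called genes then split into 5078 higher and 595 lower instead of 2223 and 2462, and 2632 and 417 instead of 966 and 1768 (1345 and 1374 with RLE size factors). In urothelial-like nuclei that scaling left Dnajb1 lower and put Hsph1 higher (log2 1.47, adjusted p 0.0096), and Hsp90aa1, Hspd1 and Dnaja1 changed sign.

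Markers of another cell type and other gene groups moved with these differences. All 10 smooth muscle markers were higher in urothelial-like nuclei, with a summed level of 3008 CPM against 38.1 to 164 CPM in cells, and in fibroblast-like nuclei 4 of 10 were higher (7571 against 297 to 2850 CPM). Of the 19 tested immediate-early genes, 19 were lower in urothelial-like nuclei (688 against 10906 to 12722 CPM) and 14 in fibroblast-like nuclei (1583 against 28927 to 43365 CPM). TRiC and prefoldin genes were lower for 13 of 13 and 11 of 13 tested. The part of these in the members' differences was not tested.

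**Figure D4:**
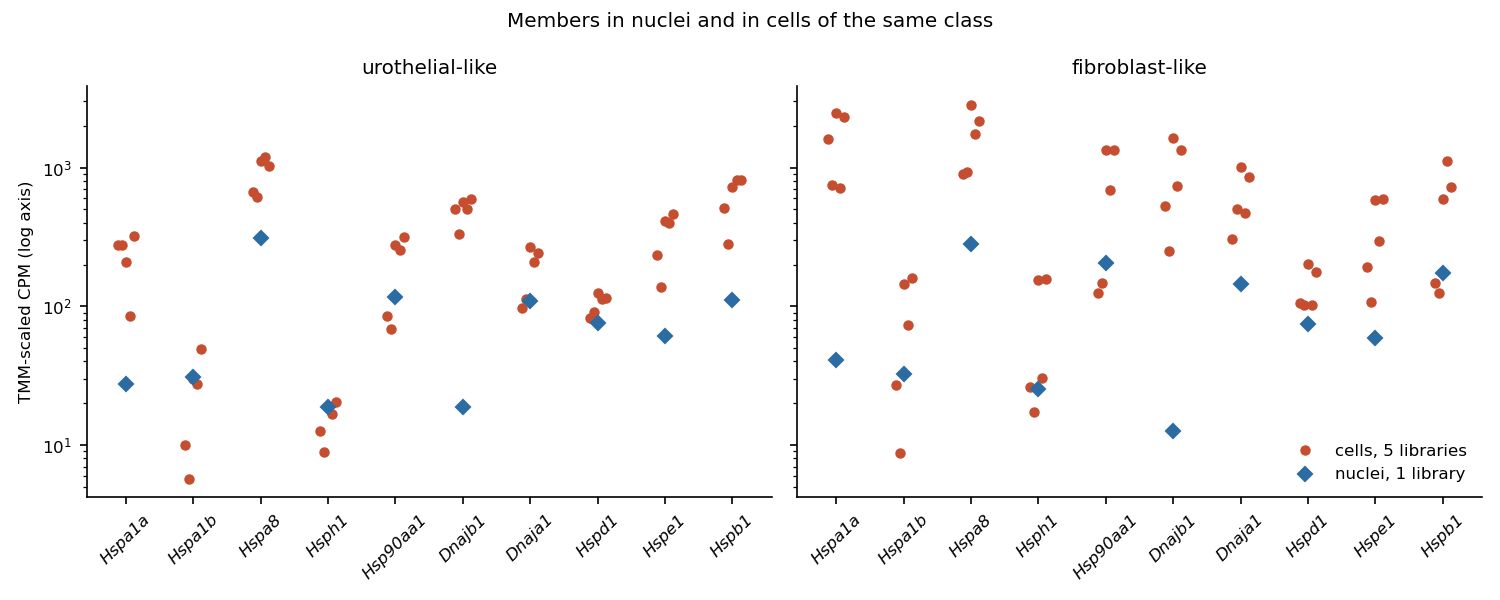
TMM-scaled CPM of each member on a log axis in urothelial-like and in fibroblast-like cells, with 5 whole-bladder cell libraries and 1 nuclei library. The nuclei lie far below all cell libraries for Dnajb1 (18.7 against 332 to 589 CPM in urothelial-like cells) and among them for Hsph1. Levels of different genes are not scaled by length.

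Within the same 5 whole-bladder libraries, fibroblast-like cells were compared with urothelial-like cells, with the library as a term. Of the 10 members, 6 were higher in fibroblast-like cells and 2 lower, and of 12939 genes tested 31% were higher and 34.9% lower. The median log2 difference was 0.79 for the members and -0.10 for all genes tested. Hspa1a was higher by 2.33 (SE 0.31, adjusted p 0.00082), in 5 of 5 libraries, and Dnaja1 by 1.38 (SE 0.14, adjusted p 1.4e-05), in 5 of 5. These 2 calls held under every alternative run for this comparison. Dnaja1 stood at 243, 392, 777, 347 and 652 CPM in fibroblast-like cells and at 95.8, 112, 267, 207 and 240 CPM in urothelial-like cells of the 22-, 3-, both 12- and the 24-month libraries.

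Hspa1b (log2 1.22, SE 0.20, adjusted p 0.00039), Hsp90aa1 (1.14, SE 0.25, adjusted p 0.0054), Hsph1 (1.62, SE 0.43, adjusted p 0.017) and Hspa8 (0.44, SE 0.13, adjusted p 0.014) were each higher in fibroblast-like cells in 5 of 5 libraries. The calls of Hsph1 and Hspa8 were lost without the first 12-month or the 24-month library (adjusted p 0.0533 to 0.0711). Those of Hspa1b, Hsp90aa1 and Hsph1 were lost when predicted doublets were kept (adjusted p 0.0638 to 0.0646). That setting also changed the clusters: fibroblast-like cells of the 22-month library went from 5816 to 2112, and the second 12-month library, with 46 instead of 96, left the fit. Hspb1 was lower by 0.96 (SE 0.33, adjusted p 0.043) and Hspe1 by 0.39 (SE 0.15, adjusted p 0.042), each higher in fibroblast-like cells in 1 of 5 libraries. Both calls are weak. The Hspb1 call was lost without the 22-month (log2 -0.58, adjusted p 0.11), 3-month, first 12-month or 24-month library, and the Hspe1 call without the 22-month (log2 -0.25, adjusted p 0.24), 3-month, second 12-month or 24-month library. Dnajb1 (0.23, adjusted p 0.53) and Hspd1 (-0.01, adjusted p 0.97) missed the threshold, each higher in 3 of 5 libraries. With library size alone the median of all genes was 0.29, and 5440 genes were higher and 2973 lower in place of 4007 and 4518. Immediate-early genes moved with this contrast, with 13 of 19 higher in fibroblast-like cells, 2 lower and a median of 1.38, and their part in it was not tested.

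The sections give the members in tissue that was not dissociated. Counts were summed over all spots of a section, and 22-month sections were compared with 14-month ones. None of the 10 members was called with edgeR (0 of 10), nor was any of all 14995 genes tested (0% higher and 0% lower). At an unadjusted p under 0.05 there were 9 members and 2488 genes, and DESeq2 called 8 members and, of all genes, 1.29% higher and 1.55% lower. With edgeR, leaving out the 22-month section 1 or the 14-month section 2 gave 1 called member each. The 22-month values were below both 14-month values for 9 members, while 51.6% of all genes had groups that did not overlap. The member median was -0.73 on the log2 scale, against 0.00022 for all genes.

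The largest difference was that of Dnajb1, at 55.6 and 48.4 CPM in the 22-month sections and at 188 and 127 CPM in the 14-month ones (log2 -1.60, SE 0.21, adjusted p 0.1). Hspa1a stood at 71.8 and 47.4 against 125 and 169 CPM (log2 -1.30, SE 0.27, adjusted p 0.18), and Hspa1b at 108 and 81.2 against 190 and 280 CPM (log2 -1.31, SE 0.25, adjusted p 0.16). For these genes the 14-month sections also differed clearly from each other. Hsph1 stood at 25.3 and 38.1 against 59.5 and 81.3 CPM (log2 -1.16, adjusted p 0.19), and Dnaja1 at 116 and 106 against 170 and 202 CPM (log2 -0.74, adjusted p 0.094). Hspb1 stood at 632 and 708 against 1121 and 1091 CPM (log2 -0.72, adjusted p 0.098), and Hspa8 at 734 and 921 against 1276 and 1378 CPM (log2 -0.68, adjusted p 0.14). These 4 were lower in both older sections than in both younger ones, without passing the threshold. Hsp90aa1 stood at 143 and 176 against 226 and 235 CPM (log2 -0.53, adjusted p 0.15), and Hspd1 at 75.6 and 79.6 against 94.6 and 104 CPM (log2 -0.36, adjusted p 0.16). Hspe1 alone overlapped, at 202 and 218 against 208 and 237 CPM (log2 -0.08, adjusted p 0.72). The summed level of the immediate-early genes was 741 to 1049 CPM at 22 months and 1736 to 4594 CPM at 14 months (0 of 20 called, median -2.02), and its part in the members' values was not tested. Of the 15 urothelial and 10 smooth muscle markers 0 were called, with sums of 14459 to 16285 against 11937 to 13810 CPM and of 22502 to 24759 against 17513 to 25369 CPM. The urothelial sums did not overlap between the ages, and the smooth muscle sums did. No gene at all was called in this fit, so the counts called here do not show equal levels. The part of cell composition in the members' values was not tested.

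Spots were then grouped by region, since spots cover several cells. Clusters of spots were counted as urothelium-raised (156 to 219 spots per section) or muscle-raised (417 to 818 spots) when at least 75% of the urothelial or smooth muscle list lay above its level in the section. Median UMIs were 40734 to 65598 in urothelium-raised and 12409 to 15699 in muscle-raised spots. With the section as a term, 4 members were higher in urothelium-raised spots and 2 lower, and of 14270 genes tested 38.8% were higher and 38% lower. The member median was 0.14, beside 0.03 for all genes.

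Hspb1 had the largest regional difference. It stood at 252, 357, 481 and 607 CPM in urothelium-raised spots of the 22-month sections 1 and 2 and the 14-month sections 1 and 2, and at 1365, 1612, 1841 and 1777 CPM in the muscle-raised spots, a log2 difference of -2.02 (SE 0.13, adjusted p 1.1e-07). The muscle-raised level was higher in 4 of 4 sections. All 5 other tested small heat shock proteins were also lower in urothelium-raised spots, with a median of -4.02, as were the 10 smooth muscle markers that defined the regions. Hspd1 was higher in urothelium-raised spots, at 95.7, 97.4, 124 and 136 against 56.0, 55.1, 66.3 and 72.3 CPM (log2 0.85, SE 0.072, adjusted p 4.7e-07). Its partner Hspe1 stood at 239, 255, 236 and 288 against 165, 149, 176 and 197 CPM (log2 0.57, SE 0.081, adjusted p 4.8e-05). The regions did not overlap for Hspd1, Hspe1 and Hspb1, 3 of the 10 members, nor for 66.4% of all genes tested.

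Dnajb1 was higher in urothelium-raised spots in 4 of 4 sections, at 66.6, 52.5, 291 and 187 CPM against 40.7, 41.5, 85.1 and 67.2 CPM (log2 1.12, SE 0.26, adjusted p 0.0099). That call was lost without the 14-month section 2 (log2 1.00, adjusted p 0.12) and with no filter on low counts (log2 1.14, adjusted p 0.054). In the 14-month section 1, a cluster of 56 urothelium-raised spots led by Atf3, Hbegf and Areg held 507 CPM of Dnajb1 (plain CPM). Another such cluster there, of 53 spots, held 194 CPM, and those of the 14-month section 2 held 183 and 222 CPM. Dnaja1 stood at 127, 108, 211 and 248 against 88.4, 106, 123 and 147 CPM (log2 0.53, SE 0.12, adjusted p 0.0015). Hsp90aa1 was lower in urothelium-raised spots in 4 of 4 sections by 0.24 (SE 0.086, adjusted p 0.024), a call lost with library size alone and without the 22-month section 1 (adjusted p 0.0603), the 22-month section 2 (0.159) or the 14-month section 1 (0.105). Hspa1a (-0.26, adjusted p 0.46), Hspa1b (0.26, adjusted p 0.39), Hspa8 (-0.12, adjusted p 0.31) and Hsph1 (0.01, adjusted p 0.95) missed the threshold. For Hspa1a this rested on the 14-month section 2, without which it was lower in urothelium-raised spots (log2 -0.56, adjusted p 0.015).

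Within urothelium-raised spots alone, 2 members were lower at 22 months, where 0.765% of 13201 genes were lower and 0.75% higher: Dnaja1 by a log2 difference of -0.98 (adjusted p 0.0092) and Hspa8 by -0.86 (adjusted p 0.025). Dnajb1 had -2.02 there (adjusted p 0.0504). Because the age difference looked unlike in the regions, the difference of the regional differences was tested after those values had been seen. At 22 months, relative to 14 months, 4 members had a smaller urothelium-raised over muscle-raised ratio, where 0.112% of 14270 genes were called lower and 0.133% higher. The interaction was -1.09 for Dnajb1 (SE 0.16, adjusted p 0.011), -1.06 for Hspa1b (SE 0.17, adjusted p 0.031), -0.85 for Hsph1 (SE 0.16, adjusted p 0.04) and -1.13 for Hspa1a (SE 0.19, adjusted p 0.044). Hspa1a, for example, stood at 54.8 and 38.2 CPM in urothelium-raised and at 96.7 and 70.5 CPM in muscle-raised spots of the 22-month sections, and at 122 and 206 against 126 and 135 CPM in the 14-month sections. In the older sections the muscle-raised spots were the higher ones, while in the younger ones the regions were nearly level in section 1 and the muscle-raised spots were lower in section 2. Hsph1 stood at 23.6 and 34.3 against 29.8 and 50.6 CPM at 22 months and at 65.2 and 95.4 against 54.2 and 66.1 CPM at 14 months, and Hspa1b at 106 and 75 against 114 and 105 CPM, then at 233 and 391 against 157 and 198 CPM. Both thus changed sides between the ages. For Dnajb1, the urothelium-raised spots of the 14-month section 1 included the cluster of 56 spots at 507 CPM (plain CPM) given above. The interactions of Hspb1 (-0.56, adjusted p 0.24), Dnaja1 (-0.48, adjusted p 0.25), Hspa8 (-0.41, adjusted p 0.34), Hsp90aa1 (-0.16), Hspd1 (-0.11) and Hspe1 (0.17) missed the threshold. The 4 calls rest on few sections: without the 22-month section 1 or section 2 none was called, with adjusted p of 0.0762 and 0.36 for Dnajb1, 0.23 and 0.518 for Hspa1a, 0.0945 and 0.518 for Hspa1b, and 0.178 and 0.518 for Hsph1. Hsph1 was also lost with DESeq2 (adjusted p 0.149) and without the 14-month section 2 (adjusted p 0.139).

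**Figure D5:**
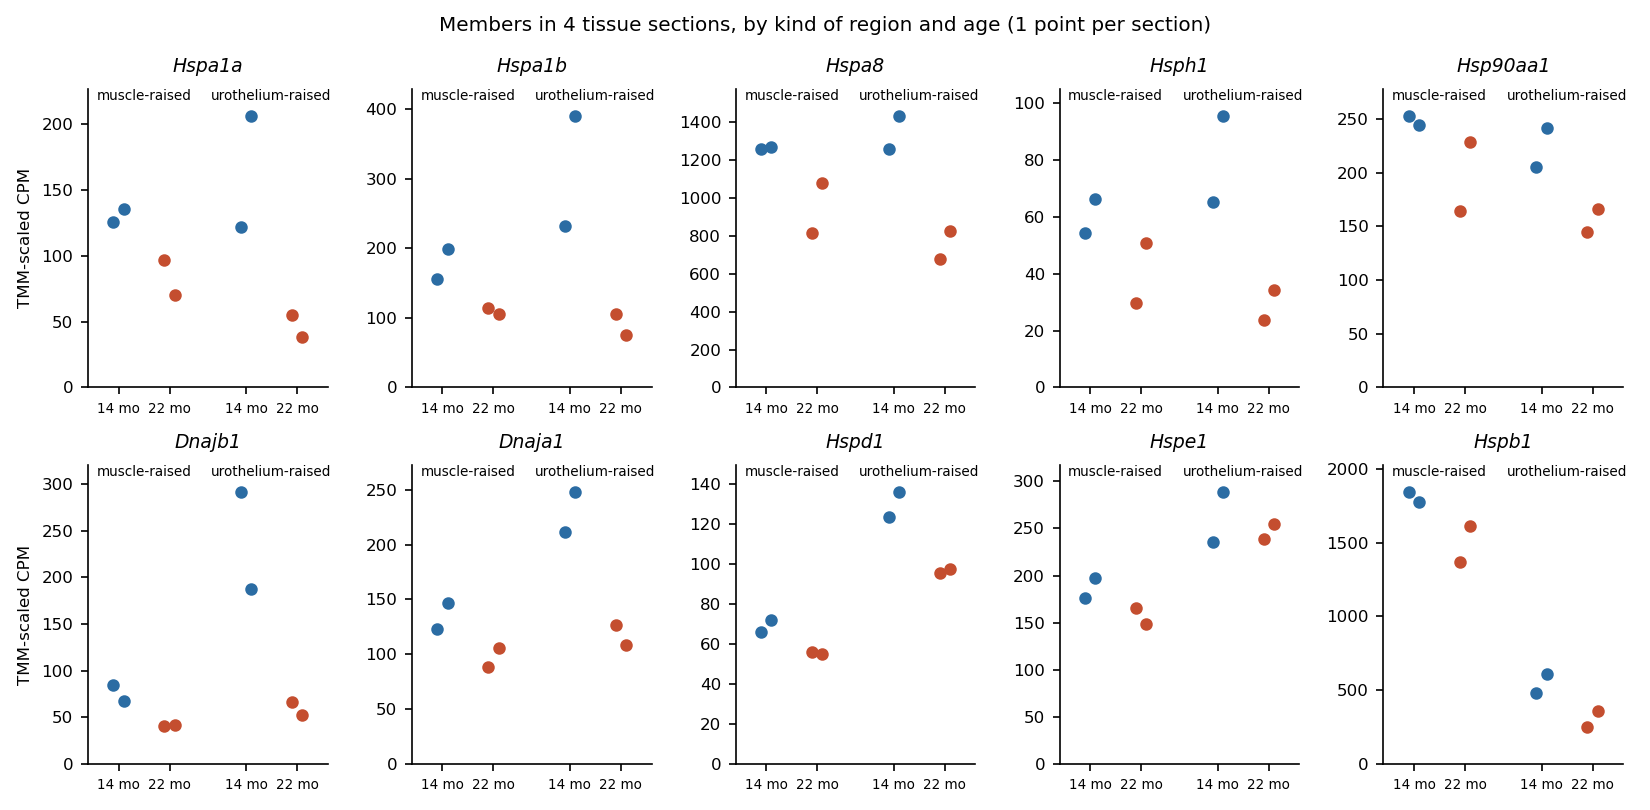
TMM-scaled CPM of each member in muscle-raised and urothelium-raised spots of each section, with axes from 0 (blue, 14 months; red, 22 months). Hspb1 is higher in muscle-raised spots of every section, and Hspd1 and Hspe1 in urothelium-raised spots. Dnajb1 in urothelium-raised spots of 14 months reaches 187 and 291 CPM against 52.5 and 66.6 CPM at 22 months. The 291 CPM includes a cluster of 56 spots at 507 CPM (plain CPM).

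The genes whose levels were most like each member's were found over 50 profiles, each a class in a library, from 8 droplet libraries and 9519 genes. Profiles share libraries, depth and classes, so the Pearson correlations of log2(CPM + 1) are a description. For Hspa1a the nearest were the immediate-early genes Jund (r = 0.79), Jun (0.77) and Fos (0.72), and for Dnajb1 the translation factor Eif1 (0.74), the ubiquitin gene Ubb (0.73) and Cdkn1a (0.72). For Hspa8 they were Nfkbia (0.80), Ifrd1 (0.77) and Gnai2 (0.77). For Hspe1 they were the ribosomal protein genes Rpl35a, Rpl39 and Rplp1 (0.73 each), and for Hspb1 they were Wwtr1 (0.84), Cd59a (0.81) and Epn2 (0.80). Other members stood nearest to one another: Hsp90aa1 led for Hsph1 (0.76), Hspd1 (0.77) and Dnaja1 (0.81), and Hspa1b for Hsp90aa1 (0.86). The nearest gene to Hspa1b was Cir1 (0.87). Over the 45 pairs of members, r ran from -0.12 to 0.86 with a median of 0.50.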

How the data were processed

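The droplet, nuclei and section tables deposited by the authors hold counts of UMIs per gene, and the bulk table, as deposited, has reads counted by gene. Per the submitters' processing notes, bcl2fastq, Cell Ranger, Space Ranger, Subread, featureCounts and the build mm10 were used; settings are not given in the sources used here. Per the labels' protocols, bulk RNA was column-purified and polyA-selected.

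Cells and spots with at least 500 UMIs and cells with at most 20% mitochondrial counts were kept, and 8 to 660 predicted doublets per library were removed (0.8% per 1000 barcodes). Clustering (scanpy 1.11.5, 30 components of 2000 variable genes, 15 neighbours, Leiden resolution 1) left out the members, the other listed chaperone and stress genes and mitochondrial genes. A cluster was named when its score for 1 of 19 marker lists was at least 0.25 and at least 3 of that list's markers were raised; how clusters near several lists were handled was decided with the clusters in view.

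Counts summed per library, class or section were tested with edgeR 4.0.16 (quasi-likelihood, robust, TMM, filterByExpr, two-sided, Benjamini-Hochberg over all genes, threshold 0.05), with DESeq2 1.42.0 as an alternative, in R 4.3.3. Mitochondrially encoded genes were left out of sums of cells, nuclei and spots. SE was taken from the log2 change and its F statistic. The code was tested on simulated data. The members and lists were chosen with earlier results of these data known. Named beside the members were up to 2 called genes per list with the largest rise and 2 with the largest fall in bulk (mean of at least 10 CPM), and the 3 nearest genes of each member. The interaction, its alternatives and the naming alternative were added after the data were seen.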

Additional observations from a re-analysis of the deposited data

Results flagged for a closer look

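The change from 14 to 22 months differed between urothelium-raised and muscle-raised spots, by a test of the difference itself, for 4 members. On the log2 scale the difference was -1.13 for Hspa1a, -1.06 for Hspa1b, -0.85 for Hsph1 and -1.09 for Dnajb1 (edgeR's quasi-likelihood test, adjusted p 0.044, 0.031, 0.04 and 0.011). Within urothelium-raised spots the change was -1.83, -1.80, -1.50 and -2.02 for these genes, and within muscle-raised spots -0.64, -0.69, -0.60 and -0.89. The test was chosen after the values had been seen, and without either 22-month section 0 of the 4 were called.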

How the results depend on the processing

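The 10 bulk calls of the members kept their direction and side of the threshold under all 11 alternatives. The fit with the replicate number as a block also called 10 members (9 higher, 1 lower); same-numbered libraries had correlated deviations of 0.203, 0.344 and -0.0702, so the numbers were not taken to pair the samples. Members called in the sections were 0, with 1 under library size alone, 4 with no filter on low counts, 8 with DESeq2, 2 in urothelium-raised spots only and 0 to 1 with a section left out. In urothelial-like nuclei 5 were called, with 2 under library size alone and 3 to 5 with a library left out. In fibroblast-like nuclei 2 were called, with 5 by DESeq2, 6 against the 12-month cells only and 2 to 4 with a library left out (4 without the 3-month one). Between fibroblast-like and urothelial-like cells 8 were called, with 4 when doublets were kept (which remade the classes and left out the second 12-month library) and 4 to 7 with a library left out. The interaction called 4, with 0 to 4 with a section left out. For all other counts of members called, the alternatives stayed within 1.5 times the count.

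Direction was reversed for values that passed no test unless stated. The largest were in urothelial-like nuclei under library size alone, where the median of all genes was 1.15. Hspe1 in the sections had 0.018 without the 14-month section 2 (range -0.174 to 0.018). In urothelial-like nuclei Hsph1 had -0.015 against the 12-month cells only, and under library size alone Hsp90aa1 had 0.50, Hspd1 0.69 and Dnaja1 0.45, as did Hspd1 in fibroblast-like nuclei (0.031). Between fibroblast-like and urothelial-like cells Hspd1 had 0.079 with RLE size factors, 0.38 under library size alone (adjusted p 0.0496), 0.083 with DESeq2, 0.15 with doublets kept, and 0.07, 0.03 and 0.17 without the 22-month, 3-month or second 12-month library (range -0.055 to 0.17); Hspe1 had 0.0031 under library size alone. Between regions Hsph1 had -0.016 with RLE size factors, -0.042 with DESeq2, -0.0016 with clusters from all variable genes, and -0.08 and -0.19 without the 14-month section 1 or 2 (range -0.19 to 0.20). The cause of these changes was not tested.

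Over all genes, counts called higher and lower in the sections were 0 and 0, against 14 and 24 under library size alone, 139 and 148 with no filter, 193 and 233 with DESeq2, 146 and 154 without the 22-month section 1, 0 and 1 without the 14-month section 1, 0 and 18 without the 14-month section 2, and 99 and 101 in urothelium-raised spots. Without the first 12-month library 586 and 1063 genes were called in fibroblast-like nuclei, and 653 and 1136 without the 24-month one. For the interaction, 19 and 16 became 14 and 19 with RLE size factors, 220 and 152 with no filter, 11 and 12 with DESeq2, 77 and 31 with clusters from all variable genes, and 12 and 6, 1 and 0, 237 and 96, and 19 and 27 without the 22-month section 1, 22-month section 2, 14-month section 1 and 14-month section 2. In bulk, 3836 and 6175 genes were called under library size alone, where the median of all genes was -0.14. The mean levels of the 10 members in 4 classes (fibroblast-, macrophage- or monocyte-, dendritic- and urothelial-like) moved by less than 1 SD in all 80 cases under both alternatives for the levels. In blood endothelial-like cells, with 2 libraries, a minimum of 1000 UMIs moved Hsph1 from 8.07 ± 1.28 to 2.01 CPM, Hspa1b from 8.07 ± 1.28 to 10.2 CPM and Hspa8 from 1845 ± 42.5 to 1947 CPM.

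The 500-UMI minimum leaves shallow nuclei, with a median of 1109 UMIs, so levels of a few CPM rest on single UMIs there.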

Other observations

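Besides the 4 members, 12 genes had a lower ratio of urothelium-raised to muscle-raised spots at 22 than at 14 months in the same test: Ank, Cd24a, Cdkn1a, Ddr1, Fam189a2, Hand2, Micall1, Nr4a1, Perp, Sertad1, Slc2a1 and Suco. They are named here after their values were seen. Nr4a1, an immediate-early nuclear receptor, had -1.50, and Cdkn1a, a cell cycle inhibitor and p53 target, had -0.85. No other gene of the chaperone lists was called (0 of the 9 HSP70, 3 HSP90, 5 small heat shock and 19 J-domain genes tested), and of the immediate-early genes Nr4a1 was the 1 called of 20. Of all 14270 genes tested, 0.112% were called lower and 0.133% higher. At such shares, the 0 called of the chaperone lists does not set the 4 members apart from them. There were 19 genes with a higher ratio.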
